A study of Mus musculus with 80 samples.

Results

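The 6 genes described here, Bmal1, Clock, Npas2, Nr1d1, Nr1d2 and Rora, encode the activators of the circadian transcriptional loop and the nuclear receptors that act on them. They were found by gene symbol and are 6 of the 78275 rows of the gene count table, and all 6 passed the filter on low counts. The rule reads gene symbols and no measured value. The livers came from C57BL/6J mice of both sexes, aged 8 to 12 weeks, kept on standard chow in a light–dark cycle and then in constant darkness. Control mice had food throughout, and fasted mice had it removed at circadian time (CT) 10. Collection ran from CT8 to CT44 every 4 h, with 2 males and 2 females of each treatment at each of 10 times, which makes 80 libraries of polyadenylated liver RNA, 40 of each treatment. The mice of the fasted group at CT8 had not yet lost their food, and those from CT12 to CT44 had been without it for 2 to 34 h. Each mouse gave 1 liver at 1 time, so no animal was followed over the cycle.

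In the mammalian clock, BMAL1 pairs with CLOCK or with its paralogue NPAS2, and the pair binds E-box sequences to drive the Period and cryptochrome genes, whose proteins then inhibit it. The same pair drives Nr1d1 and Nr1d2, which encode REV-ERBα and REV-ERBβ. These heme-binding receptors recruit the NCoR–HDAC3 corepressor to response elements in Bmal1, Clock and Npas2, where they compete with the activating ROR receptors, among them the product of Rora. In the liver this accessory loop is also tied to lipid and glucose metabolism.

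Library totals lay between 25534901 and 59927771 gene counts, with a median of 42303883. For 40 libraries the sex in the title and in the detailed labels differs, and for 40 the treatment, and the titles were used. Xist and Ddx3y, transcripts of the X and Y chromosomes, went with the sex of the title in 80 of 80 libraries. Fgf21, the fasting hormone of the liver, was higher by 3.95 ± 0.25 (SE) on the log2 scale in the fasted mice over CT12 to CT44, and Srebf1, a regulator of lipid synthesis, was lower by a log2 difference of -3.13 ± 0.09. The control CT8 female 2 library stood apart, with 31.3% of its counts on Rn18s-rs5, a ribosomal RNA gene, against at most 4.88% in the others. All 5 hepatocyte markers were present in every library. Their summed level from CT12 to CT44 ranged from 57590 to 110500 CPM (counts scaled to library size) in controls and from 71110 to 126600 CPM in fasted mice. The 5 Kupffer cell markers, also present in every library, summed to 209 to 601 CPM in controls and 151 to 446 CPM in fasted mice. Of the 27 markers of non-hepatocyte cell types, 25 had counts in every library and 0 were at 0 in all. In bulk liver, fewer cells of a type and less RNA per cell cannot be told apart.

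The promoters of 3 of the genes are shown because they carry the letters through which the loop is described: the ROR and REV-ERB elements of Bmal1 and the E-box-like letters of Nr1d1, with a receptor half-site in Nr1d2. They come from RefSeq on GRCm38.p6 and span 250 bases before to 50 bases after a gene start, and capitals mark the matched letters. RefSeq listed 9 such promoters for the 6 genes, 2 for Bmal1, where it is still named Arntl, 3 for Clock and 1 each for the others. The Bmal1 promoter, at chr7:113207261-113207560 on the plus strand, holds a pair of near-copies in capitals that match GTAGGTNA and start at -7 and 30 from the gene start.

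Bmal1: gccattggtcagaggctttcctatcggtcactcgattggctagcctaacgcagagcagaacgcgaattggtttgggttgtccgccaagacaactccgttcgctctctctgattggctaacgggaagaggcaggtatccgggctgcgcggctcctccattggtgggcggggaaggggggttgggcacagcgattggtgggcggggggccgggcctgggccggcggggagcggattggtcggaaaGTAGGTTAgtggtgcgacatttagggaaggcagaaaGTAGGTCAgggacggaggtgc

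Nr1d1: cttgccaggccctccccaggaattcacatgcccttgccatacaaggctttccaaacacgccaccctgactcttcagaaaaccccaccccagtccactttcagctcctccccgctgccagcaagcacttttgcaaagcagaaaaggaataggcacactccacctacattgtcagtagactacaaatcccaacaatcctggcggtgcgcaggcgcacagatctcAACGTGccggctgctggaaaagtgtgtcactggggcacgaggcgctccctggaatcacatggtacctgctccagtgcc

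Nr1d2: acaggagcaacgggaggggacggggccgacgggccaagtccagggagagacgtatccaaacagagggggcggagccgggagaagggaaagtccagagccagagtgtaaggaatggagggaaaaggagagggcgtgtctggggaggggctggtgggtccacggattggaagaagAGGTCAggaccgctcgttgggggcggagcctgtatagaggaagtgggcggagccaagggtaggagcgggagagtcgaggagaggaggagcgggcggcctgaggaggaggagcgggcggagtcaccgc

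The Nr1d1 promoter lies at chr11:98775328-98775627 and the Nr1d2 promoter at chr14:18239057-18239356, both on the minus strand and printed 5′ to 3′ along the gene. Both strands were searched. GTAGGTNA was in both Bmal1 promoters and in 2.14% of all 32851 promoters. It leaves open the letter at which the printed copies differ, so that share is no test of them. The downstream copy contains TAGGTCA, which 2.61% of promoters hold, and the upstream copy, GTAGGTTA, does not. The Nr1d1 capitals are CACGTT read on the other strand, starting at -28, and 4.68% of promoters hold that motif. The Nr1d2 capitals are AGGTCA at -77, a half-site that is part of TAGGTCA and stands in 16.3% of promoters, among them 1 of the 3 Clock promoters. The perfect E-box CACGTG, in 7.15% of promoters, the motif TGGGTCA, in 3.98%, and the D-box letters TTATGTAA and TTACGTAA, in 0.938% and 0.119%, were in 0 of the 9 windows. These matches describe letters in a window and no binding was measured.

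In the fed liver all 6 genes had a 24 h rhythm, tested with a cosine and a sine over the 40 control libraries by edgeR's quasi-likelihood method. An adjusted p (Benjamini–Hochberg over all genes) under 0.05 counts as called here, and 41.8% of 20114 genes were called. The activator genes peaked late in the subjective night and the REV-ERB genes in the subjective day. Sizes of rhythms are log2 peak-to-trough differences, log2 differences are given ± SE and levels in CPM ± SD (n = 4). The genes sit in GENCODE M21 (GRCm38, an earlier build than the GRCm39 of the submitters' processing notes), with Bmal1 (ENSMUSG00000055116.9) at chr7:113207465-113314126, Clock (ENSMUSG00000029238.12) at chr5:76209868-76304792, Npas2 (ENSMUSG00000026077.16) at chr1:39193731-39363236, Nr1d1 (ENSMUSG00000020889.12) at chr11:98767932-98775333, Nr1d2 (ENSMUSG00000021775.12) at chr14:18204054-18239127 and Rora (ENSMUSG00000032238.18) at chr9:68653786-69388246.

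**Figure D1:**
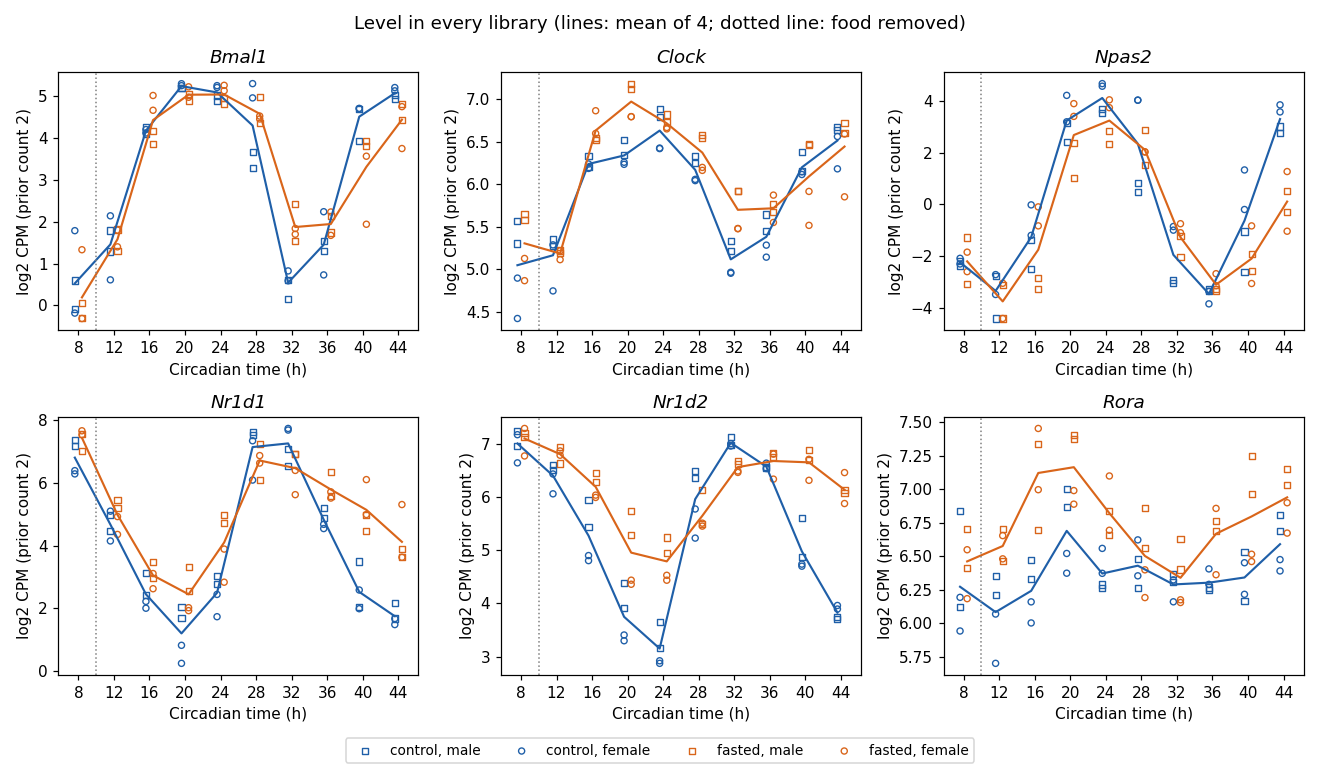
Level of each gene in every library, as log2 CPM with a prior count of 2 (vertical axis, its range differing between panels), against circadian time in hours. Squares are males, circles females, blue control and orange fasted, lines join the means of 4 libraries, and the dotted line marks the removal of food. The fasted points of Nr1d1 and Nr1d2 lie above all control points at CT40 and CT44, and those of Npas2 lie below at CT44.

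Bmal1, the partner shared by CLOCK and NPAS2, peaked in controls at CT21.7 (95% interval 21.1 to 22.3), and its log2 peak-to-trough difference was 4.66 (3.97 to 5.35, adjusted p = 1.09e-11). Its control mean was highest at CT20, at 37.9 ± 1.17 CPM (SD, n = 4), and lowest at CT32, at 1.43 ± 0.27 CPM. Ordered by mean, CT20, CT24 and CT44 overlapped with their neighbours, as did CT40, CT28 and CT16 below them, and then CT12, CT36, CT8 and CT32, while the ranges of CT44 and CT40, and of CT16 and CT12, did not overlap. At CT28 the 2 control females, at 31.2 and 39.5 CPM, and the 2 control males, at 9.66 and 12.6 CPM, lay far apart.

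Fasting left the mean of Bmal1 over CT12 to CT44 without a called difference, at a log2 difference of 0.05 (95% interval -0.15 to 0.25, adjusted p = 0.705). The test of all 9 times together did call it, at an adjusted p of 0.00116, and its single-time effects had opposite signs. At CT32, the control trough, the 4 control libraries were at 1.07, 1.46, 1.47 and 1.72 CPM and the 4 fasted libraries at 2.86, 3.21, 3.53 and 5.30 CPM. The groups did not overlap, and the log2 difference was 1.39 ± 0.35 (SE, adjusted p = 0.00359). At CT40, on the rise, control libraries were at 15.3, 26.0, 26.1 and 26.2 CPM and fasted libraries at 3.79, 11.8, 14.1 and 15.2 CPM. The highest fasted library stayed just below the lowest control, and the log2 difference was -1.11 ± 0.29 (adjusted p = 0.00202). Without the fasted CT40 female 2 library, the one at 3.79 CPM, it was -0.82 with an adjusted p of 0.0340. At CT44 the groups did not overlap either, at 33.8 ± 2.86 against 22.6 ± 6.75 CPM, but the difference of -0.59 was not called (adjusted p = 0.1004). It was called by limma-voom (0.0102), in the fit of that time's 8 libraries alone (0.0486) and without female replicate 2 (-0.86, 0.00339). The joint call was lost without male replicate 1 of each group (adjusted p = 0.123) and without male replicate 2 (0.211), as was the CT32 call (0.0817 and 0.178), and the CT40 call was lost without male replicate 2 (0.150).

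Clock, the DNA-binding partner with the smaller rhythm, had a control peak-to-trough difference of 1.54 (1.33 to 1.75) and a peak at CT21.7 (21.1 to 22.2). Its control mean ran from 34.5 ± 11.4 CPM at CT8 to 100 ± 16.9 CPM at CT24. The 6 times from CT24, the highest, down to CT28 overlapped with their neighbours in the order CT24, CT44, CT20, CT16, CT40 and CT28, and a gap separated them from CT36, CT12, CT32 and CT8. Over CT12 to CT44 Clock was higher in fasted mice by a mean log2 difference of 0.23 (0.16 to 0.31, adjusted p = 2.65e-07), 1.18-fold, against a median over all genes of -0.02. At CT8, before food removal, the fasted group was already higher by a similar 0.25 ± 0.11, which was not called (adjusted p = 0.311).

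The called rises of Clock were at CT16, CT20, CT32 and CT36. At CT20 control libraries were at 75.2, 76.5, 81.2 and 91.4 CPM and fasted libraries at 110.9, 111.0, 138.6 and 145.3 CPM. The groups did not overlap, the males were above the females in each, and the log2 difference was 0.63 ± 0.11 (adjusted p = 6.84e-06). At CT32 the control values of 30.9 to 40.2 CPM and the fasted values of 44.4 to 60.6 CPM did not overlap, with a log2 difference of 0.58 ± 0.11. At CT40 and CT44 the differences were -0.10 ± 0.11 and -0.05 ± 0.11, neither called. At CT44 the fasted female 1 library stood at 57.7 CPM and the other fasted libraries at 96.3 to 106 CPM. The CT16 and CT36 calls were lost without male replicate 1 and without male replicate 2.

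Npas2, the CLOCK paralogue, had the largest control rhythm of the 6. It peaked at CT23.4 (23.1 to 23.7), and its log2 peak-to-trough difference was 8.52 (7.71 to 9.34). Its control mean was 18.2 ± 7.14 CPM at CT24. At CT36 the 4 control libraries held 1, 2, 2 and 3 counts, so the trough lay at the floor of 3 counts in each. The fasting effects at CT12 and CT36 therefore had standard errors of 1.24 and 1.09 and could not show a difference at this depth.

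Fasting lowered Npas2 at CT40 and CT44. At CT44 control libraries were at 6.68, 7.99, 11.8 and 14.3 CPM and fasted libraries at 0.441, 0.764, 1.37 and 2.36 CPM. Each fasted library was below each control, and the log2 difference was -2.99 ± 0.39, 7.93-fold lower (adjusted p = 8.42e-08). It was -2.61 without fasted CT44 female 1. At CT40 the fasted libraries held 3, 3, 10 and 14 counts and the controls 4, 22, 38 and 136, which overlap. The difference there of -1.67 ± 0.58 (adjusted p = 0.0148) was not called by limma-voom (0.0952), in the fit of that time's 8 libraries alone (0.128) or without male replicate 2 (0.334). At CT24, near the peak, control libraries were at 11.4, 12.8, 23.5 and 25.2 CPM and fasted libraries at 4.98, 7.10, 13.2 and 16.3 CPM. Those groups overlapped and the difference of -0.86 ± 0.36 was not called (adjusted p = 0.0790), though limma-voom (0.00125) and the fit of that time's 8 libraries alone (0.00218) called it. The mean effect of -0.69 (-1.16 to -0.21, adjusted p = 0.0104) averages log2 effects over 9 times, with those near 3 counts included. Leaving out male replicate 1, male replicate 2 or female replicate 1 left a CT12 group of 1 sex at 0 counts, so those fits were void for this mean, and the fit without female replicate 2 called it (-0.77, 0.0144).

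Nr1d1, which encodes REV-ERBα, had a control peak-to-trough difference of 6.00 (5.43 to 6.56) with a peak at CT6.90 (6.51 to 7.29). Its control mean was 162 ± 58.0 CPM at CT32 and 2.54 ± 1.34 CPM at CT20. CT32, CT28 and CT8 overlapped at the top, CT36 and CT12 came below them, and CT40, CT24, CT16, CT44 and CT20 overlapped as neighbours at the bottom. Its exons overlap those of Thra, on the opposite strand, over 263 bases in M21. The library kit kept the strand, but whether the counting used it is not given in the sources used here. Thra, a thyroid hormone receptor, was at 9.97 to 18.4 CPM in the control means and at 8.32 to 19.7 CPM in the fasted means, where at CT40 it was at 13.2 ± 1.69 and 12.3 ± 2.96 CPM.

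Fasting raised Nr1d1 by a mean log2 difference of 0.96 (0.75 to 1.17, adjusted p = 6.86e-11), 1.95-fold. At CT8, before food removal, the fasted group was higher by 0.64 ± 0.30, which was not called (adjusted p = 0.350). At CT40 control libraries were at 3.93, 4.06, 5.97 and 11.2 CPM and fasted libraries at 22.3, 31.8, 31.9 and 69.0 CPM. Every fasted library was above every control, and the log2 difference was 2.59 ± 0.31, 6.03-fold (adjusted p = 1.67e-08). Without fasted CT40 female 2, the library at 69.0 CPM, it was 2.26. At CT44 control libraries were at 2.75, 3.15, 3.16 and 4.45 CPM and fasted libraries at 12.4, 12.6, 14.9 and 39.8 CPM. The log2 difference was 2.50 ± 0.33 (adjusted p = 7.04e-08), and without fasted CT44 female 1, the library at 39.8 CPM, it was 1.96, which is still past the threshold. Kupffer cell markers were lower in fasted mice at these times, at a mean of 176 against 395 CPM in controls at CT40 and 205 against 299 CPM at CT44. They were also lower from CT20 to CT36, at 196 against 350 CPM at CT36, and higher at CT12 and CT16. Lymphocyte markers went from 24.1 to 9.95 CPM and red cell markers from 97.7 to 40.5 CPM at CT40, while hepatocyte markers were at 80930 and 92700 CPM and endothelial markers at 270 and 258 CPM. The part of these cells in the fasting differences of the 6 genes was not tested.

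The other called rises of Nr1d1 were at CT20, CT24 and CT36, with log2 differences of 1.27 ± 0.35, 1.64 ± 0.32 and 0.98 ± 0.30. The CT20 call was lost with limma-voom (adjusted p = 0.0644) and without male replicate 1 (0.0670), and the CT36 call without male replicate 2 (0.266). Near the control peak the sign was the other way: at CT28 and CT32 the differences were -0.44 ± 0.30 and -0.78 ± 0.30, neither called (adjusted p = 0.339 and 0.0672). At CT32 the fall was called by limma-voom (0.0324), in the fit of that time's 8 libraries alone (0.00788), without female replicate 1 (0.0389) and without fasted CT44 female 1 (0.0461).

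Nr1d2, which encodes REV-ERBβ, peaked in controls at CT9.39 (8.98 to 9.79), later than Nr1d1, with a peak-to-trough difference of 3.55 (3.20 to 3.89). Its control mean was 130 ± 22.9 CPM at CT8 and 9.04 ± 2.40 CPM at CT24. CT8 and CT32 overlapped at the top, CT36, CT12, CT28, CT16 and CT40 followed as overlapping neighbours, and CT44, CT20 and CT24 lay below a gap. Fasting raised it by a mean log2 difference of 0.83 (0.73 to 0.93, adjusted p = 7.44e-19), 1.78-fold.

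At CT44 control libraries of Nr1d2 were at 13.0, 13.4, 14.8 and 15.5 CPM and fasted libraries at 58.6, 67.3, 69.8 and 87.7 CPM. The groups were far apart, with a log2 difference of 2.32 ± 0.15, 5.01-fold (adjusted p = 2.31e-15). At CT24, the control trough, control libraries were at 7.28, 7.53, 8.88 and 12.5 CPM and fasted libraries at 21.6, 23.0, 30.9 and 37.6 CPM. These groups did not overlap either, and the difference was 1.64 ± 0.16. Called rises also stood at CT16, CT20 and CT40, at 0.91 ± 0.15, 1.21 ± 0.15 and 1.66 ± 0.15. At CT32 fasted mice were lower, with controls at 124 to 139 CPM and fasted mice at 87.9 to 101.7 CPM, and the log2 difference was -0.46 ± 0.15 (adjusted p = 0.0292). The CT32 call was lost in each of the 4 fits that left out 1 replicate of a sex (adjusted p from 0.0821 to 0.184).

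Rora, the ROR receptor gene, had a small control rhythm that peaked at CT22.6 (20.6 to 24.6), and its log2 peak-to-trough difference was 0.37 (0.18 to 0.55). Its adjusted p was 0.00472, and the rhythm was not called in males alone (0.111) or without male replicate 2 (0.0538). Its control means ran from 68.7 ± 12.7 CPM at CT12 to 105 ± 21.0 CPM at CT20, and all neighbours in their order overlapped. Fasting raised it by a mean log2 difference of 0.40 (0.31 to 0.49, adjusted p = 6.11e-11), 1.32-fold, and the fasted mean was above the control mean at all 9 times from CT12 to CT44. The fasted group was also higher at CT8, before food removal, by 0.17 ± 0.13, which was not called (adjusted p = 0.649).

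At CT16 control libraries of Rora were at 64.1, 71.5, 80.5 and 88.9 CPM and fasted libraries at 103.6, 127.7, 162.0 and 175.2 CPM. All fasted libraries were above all controls, with a log2 difference of 0.90 ± 0.13 (adjusted p = 1.31e-06). It was the only one of the 6 called at CT12, 2 h into the fast, with a difference of 0.49 ± 0.13 (adjusted p = 0.0423), and that call was lost without the filter on low counts (0.0672), in the fit of that time's 8 libraries alone (0.0787) and in 3 of the 4 fits that left out 1 replicate of a sex. Called rises also stood at CT20, CT24, CT36, CT40 and CT44, from 0.35 to 0.47, and not at CT28 and CT32, at 0.07 ± 0.13 and 0.05 ± 0.13. Without the filter the CT36 and CT44 calls were lost (0.0525 and 0.0650). Of the 4 replicate fits, CT36 and CT44 were also lost in 3 each, and CT24 and CT40 in 2 each.

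From CT12 to CT44, fasted means of Bmal1 ran from 2.98 ± 0.55 CPM at CT12 to 33.2 ± 4.53 CPM at CT24, and those of Clock from 36.3 ± 1.25 CPM at CT12 to 126 ± 18.1 CPM at CT20. For Npas2 the highest fasted mean was 10.4 ± 5.27 CPM at CT24, and at CT12 the fasted libraries held 0, 0, 2 and 3 counts. Fasted means of Nr1d1 ran from 5.86 ± 2.82 CPM at CT20 to 109.6 ± 34.9 CPM at CT28. Those of Nr1d2 ran from 28.3 ± 7.48 CPM at CT24 to 112 ± 10.1 CPM at CT12, and those of Rora from 81.7 ± 12.9 CPM at CT32 to 145 ± 26.2 CPM at CT20. In the order of fasted means with CT8 included, neighbouring times overlapped throughout for Bmal1, Clock and Rora, and a gap stood only between CT28 and CT44 for Npas2, between CT44 and CT16 for Nr1d1 and between CT32 and CT16 for Nr1d2.

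**Figure D2:**
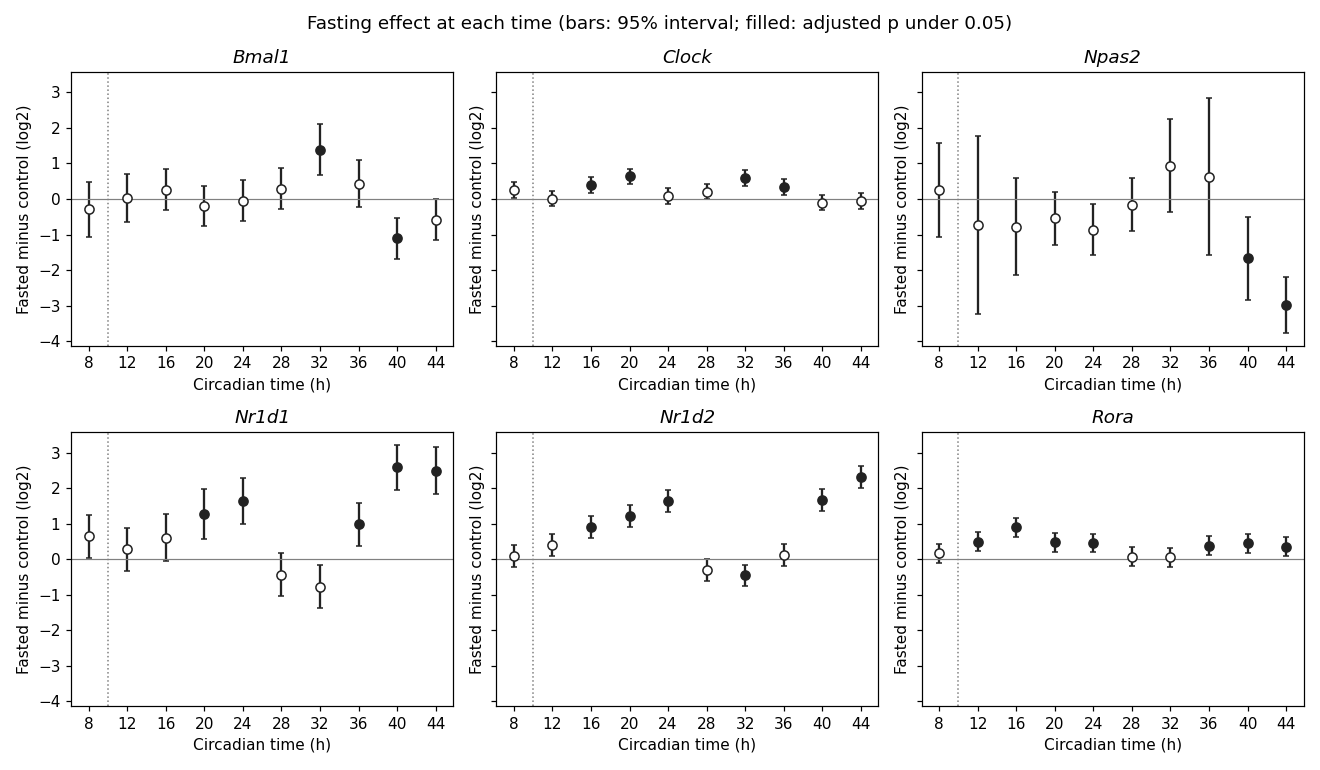
Fasting effect, fasted minus control on the log2 scale (vertical axis, shared by the panels), against circadian time in hours, with 95% intervals from the fit of 80 libraries. Filled points have an adjusted p under 0.05. The rises of Nr1d1 and Nr1d2 are largest at CT40 and CT44, up to 2.59 and 2.32, where Npas2 falls by as much as 2.99.

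Counted together, 5 of the 6 genes, all but Bmal1, were called in the mean fasting effect, where 62.5% of 21187 genes were called, and all 6 in the joint test over 9 times, where 61.7% were. The median mean effect of the 6 was 0.32, against -0.02 over all genes tested. At CT8, before food removal, the median difference of the 6 was 0.21, against 0.006 over all genes. These tests and those of single times share their libraries. Before food removal, at CT8, 0 of 6 were called (1.33% of all genes), 2 had an unadjusted p under 0.05, Clock and Nr1d1, and limma-voom called 0. Without female replicate 1, which leaves the library rich in ribosomal RNA as the control female, Bmal1 at -1.30 and Clock at 0.30 were called at CT8 (0.0106 and 0.0187). At single times 1 of 6 was called at CT12 (1.60% of all genes), 3 at CT16 (23.4%), 4 at CT20 (36.6%), 3 at CT24 (24.1%), 0 at CT28 (21.0%), 3 at CT32 (17.7%), 3 at CT36 (26.8%), 5 at CT40 (39.9%) and 4 at CT44 (39.4%). At CT28, 18 h into the fast, 1 gene, Nr1d2, had an unadjusted p under 0.05, and limma-voom called 0. Of the 54 combinations of gene and time from CT12 to CT44, 22 were called higher and 4 lower in fasted mice. The 4 fasted and 4 control libraries did not overlap in 19 of the 54, against 21.1% of all combinations of gene and time.

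The effect of the fast at the same phase of the cycle was compared between the days, at CT36 against CT12, CT40 against CT16 and CT44 against CT20, in a joint test. It called 4 of the 6, Clock, Npas2, Nr1d1 and Nr1d2, where 17.1% of all genes were called. For Nr1d2 the effect grew by 0.75 ± 0.22 from CT16 to CT40 and by 1.12 ± 0.22 from CT20 to CT44 (adjusted p of the joint test 0.000132), while the CT36 minus CT12 difference was -0.29 ± 0.21. For Nr1d1 the differences were 0.71 ± 0.43 from CT12 to CT36, 1.98 ± 0.45 from CT16 to CT40 and 1.22 ± 0.48 from CT20 to CT44 (0.00148). For Clock they were 0.33 ± 0.15, -0.50 ± 0.15 and -0.69 ± 0.15 in the same order (0.000325), so the first pair had the opposite sign to the others. For Npas2 they were 1.35 ± 1.65, with CT12 near 0 counts, -0.89 ± 0.89 and -2.44 ± 0.54 (0.00564). Bmal1 missed the threshold (0.0535, or 0.00525 with limma-voom, which called it), with -1.37 ± 0.41 from CT16 to CT40, and so did Rora (0.250). The test rests on few libraries a time. Without male replicate 1 or male replicate 2 the calls of Clock and Nr1d1 were lost and that of Nr1d2 stayed. For Npas2 those fits were void, since they left a CT12 group of 1 sex at 0 counts.

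In the fasted liver all 6 genes kept a called 24 h rhythm, in a fit of the 72 libraries from CT12 to CT44 that allows a linear change over time, where 50.4% of 20965 genes were called. The rhythms of fasted and control mice differed for 4 of the 6, Nr1d1, Nr1d2, Rora and Npas2, where 23.2% of all genes were called. The peak-to-trough difference of Nr1d1 was 6.23 in controls and 3.51 in fasted mice, a change of -2.72 (95% interval -3.63 to -1.80), and its peak moved by 0.28 h (-0.52 to 1.07), with an adjusted p of 3.39e-05 for the test of both. For Nr1d2 it was 3.55 and 1.85, a change of -1.69 (-2.20 to -1.19), and its peak was later by 2.45 h (1.59 to 3.30), from CT9.40 to CT11.8 (adjusted p = 1.45e-09). For Rora it was 0.38 and 0.72, a change of 0.34 (0.06 to 0.63), with a peak shift of -3.32 h (-5.65 to -0.99) and an adjusted p of 0.00962. The Rora call was lost in males alone (0.490) and without either female replicate (0.0655 and 0.144).

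For Npas2 the peak-to-trough difference was 8.42 in controls and 7.26 in fasted mice and the peak moved by 0.73 h (0.16 to 1.30), with an adjusted p of 0.0487. That call was lost with limma-voom (0.169), without the linear change (0.110), without the filter (0.0622), in females alone (0.836), without either male replicate (0.384 and 0.297) and without fasted CT44 female 1 (0.0657). Bmal1 and Clock were not called. The interval of the change in peak-to-trough difference was -1.78 to 0.11 for Bmal1 and -0.48 to 0.25 for Clock, and that of the peak shift was -0.29 to 1.64 h and -0.83 to 1.24 h. In males alone the rhythm difference of Bmal1 was called (adjusted p = 0.0357). The linear change in fasted mice was 1.54 ± 0.26 log2 per 24 h for Nr1d1 and -1.41 ± 0.38 for Npas2, against 0.40 ± 0.27 and 0.48 ± 0.35 in controls.

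**Figure D3:**
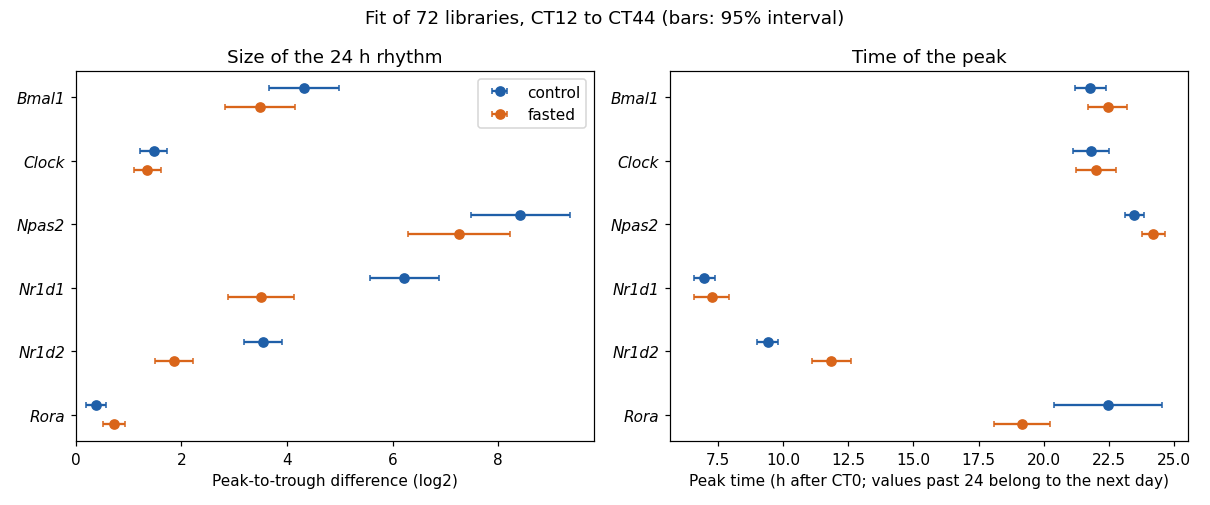
Left, peak-to-trough difference of the fitted 24 h rhythm (log2), and right, time of its peak in hours, for control (blue) and fasted (orange) mice, with 95% intervals, from the fit of 72 libraries. The fasted sizes of Nr1d1 and Nr1d2, 3.51 and 1.85, lie below the control sizes of 6.23 and 3.55, and the fasted peak of Nr1d2 is later by 2.45 h.

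The control waveforms departed from a plain cosine for 4 of the 6, Bmal1, Clock, Nr1d1 and Nr1d2, in a test of an added 12 h term that called 5.88% of all genes. The 12 h peak-to-trough difference was 1.72 ± 0.21 log2 for Bmal1, 35.9% of its 24 h term, and 0.50 ± 0.07 for Clock, 32.5% of it. For Nr1d1 and Nr1d2 the shares were 20.1% and 20.4%. Bmal1 spent CT16 to CT28 at mean levels of 18.1 CPM or more and CT32 to CT36 at 2.89 CPM or less. The calls of both Nr1d1 and Nr1d2 were lost in females alone (adjusted p = 0.413 and 0.290) and without male replicate 1. The Nr1d1 call was also lost without male replicate 2.

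All 6 genes differed between the sexes in the mean control level, where 39.2% of all genes did. Npas2 was higher in females by 1.28 (0.68 to 1.88) on the log2 scale (adjusted p = 0.00149), and at 9 of 10 times the female mean was above the male mean. Bmal1 was also higher in females, by 0.38 (0.09 to 0.66, adjusted p = 0.0303), at 9 of 10 times. That call was lost with limma-voom (0.0942) and under the replicate block (0.0620). It was also lost without control CT8 female 2 (a log2 difference of 0.26), without female replicate 2 (0.18) and without either male replicate (0.29 and 0.50). The other 4 were higher in males. The female minus male difference was -0.30 (-0.40 to -0.20) for Clock, with males higher at 10 of 10 times, and -0.51 (-0.80 to -0.22) for Nr1d1. It was -0.40 (-0.54 to -0.26) for Nr1d2 and -0.17 (-0.29 to -0.05) for Rora. The Nr1d1 call was lost without male replicate 1 (0.170), and the Rora call without female replicate 2 (0.207) and without either male replicate (0.104 and 0.0668).

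The sex difference of the mean fasting effect was called for 0 of 6, where 12.4% of all genes were called, 0 had an unadjusted p under 0.05 and limma-voom called 0. The interval of the female minus male difference was -0.79 to 0.03 for Bmal1, -1.41 to 0.49 for Npas2 and -0.15 to 0.14 for Clock. It was -0.29 to 0.56 for Nr1d1, -0.11 to 0.30 for Nr1d2 and -0.25 to 0.10 for Rora. In males and females taken apart the mean effect was 0.89 ± 0.15 and 1.03 ± 0.15 for Nr1d1 and 0.79 ± 0.07 and 0.88 ± 0.07 for Nr1d2. Without female replicate 1 the Bmal1 difference was called, at -0.48 (adjusted p = 0.0493). The sex difference of the control rhythm was called for 0 of 6, where 0.0398% of all genes were called, again with 0 at an unadjusted p under 0.05 and 0 by limma-voom.

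**Figure D4:**
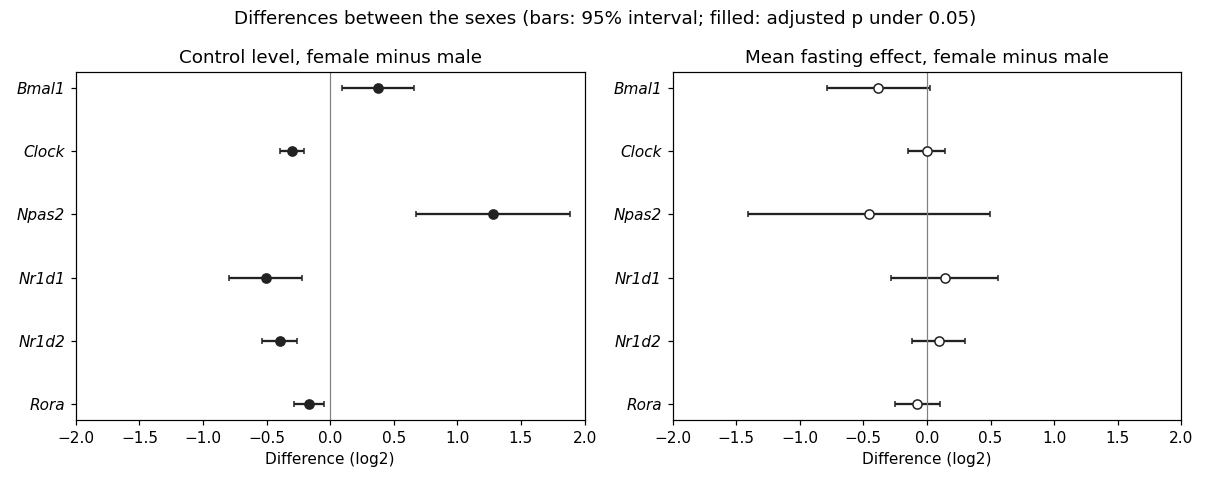
Female minus male difference on the log2 scale (horizontal axis) in the mean control level (left) and in the mean fasting effect (right), with 95% intervals. Filled points have an adjusted p under 0.05. In the control level Npas2, at 1.28, and Bmal1, at 0.38, lie to the right of 0 and the other 4 genes to the left, and no point of the right panel is filled.

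Exon usage, the share of each exon bin within its gene, was tested on the exon counts of the 72 libraries from CT12 to CT44. The test called 0 of the 6 genes, where 14.7% of 13728 genes were called, 0 had an unadjusted p under 0.05 and limma's diffSplice called 0. For Npas2 the test was void, since its 22 tested bins all had p-values between 0.9996 and 0.9998 whatever their difference, and limma's diffSplice gave that gene an unadjusted p of 0.890. Bins 2 and 12 of Bmal1 had such p-values too, though bin 2 held 0.135% of the gene's exon counts in controls and 0.291% in fasted mice. The test therefore says nothing of those bins, and limma's diffSplice gave Bmal1 an unadjusted p of 0.828. The tested bins were 26 of 30 for Bmal1, 33 of 34 for Clock, 22 of 24 for Npas2, 10 of 10 for Nr1d1, 14 of 14 for Nr1d2 and 16 of 22 for Rora. The most used bin of Rora, its last, held 55.0% ± 2.15 (SD, n = 36) of the gene's exon counts in controls and 56.1% ± 2.06 in fasted mice. The third bin of Clock held 24.7% ± 1.24 and 24.6% ± 1.44. The columns of fasted CT40 could not all be matched to their mice, so that group was fitted without sex.

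The genes whose log2 CPM ran most like that of each member over the 80 libraries, among 11576 genes with a mean log2 CPM of at least 1, are given as a description, since the libraries share the rhythm and the fast. For Bmal1 they were Caprin1 (Pearson's r = 0.946), Lgalsl (0.928) and Rfxank (0.917). For Clock they were Bltp1 (0.919), Clpx (0.918) and Lrfn3 (0.914), and for Npas2 Mad2l2 (0.878), Dtx4 (0.874) and Asap2 (0.867). For Nr1d1 they were Jade1 (0.864), Stxbp2 (0.783) and Nr1d2 (0.780). For Nr1d2 they were the clock output genes Dbp (0.885) and Tef (0.849), with the glycogen synthase gene Gys2 (0.8291). For Rora they were Rnf214 (0.848), Ccng2 (0.840) and Tgoln1 (0.828).

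The other genes of the loop were counted in 4 lists. Of the 5 Period and cryptochrome genes, the repressors of the pair, 2 rose and 2 fell in the mean fasting effect, which called 62.5% of all genes, with a list median of -0.07 against -0.02 over all genes. Per1 rose by 1.46 ± 0.11 and Cry2 by 0.24 ± 0.04, and Per2 fell by a log2 difference of -0.64 ± 0.07 and Per3 by one of -0.39 ± 0.11. The rhythm difference was called for 2 of the 5, Per1 and Cry2, and for 23.2% of all genes. Of the 7 output factors, which carry the rhythm to other genes, 4 rose and 1 fell, against the same 62.5%, with a median of 0.20. Ciart, a repressor of the activator pair, rose by 1.71 ± 0.13, Dbp, a D-box binding activator, by 0.38 ± 0.13 and Nfil3, its antagonist, by 0.21 ± 0.07, and Bhlhe40 changed by -0.98 ± 0.07.

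Of the 6 subunits of the corepressor that REV-ERB receptors recruit, 3 rose and 2 fell, with a median of 0.05, where 62.5% of all genes were called in either direction. The mean effects were 0.66 ± 0.05 for Tbl1xr1, -0.47 ± 0.03 for Tbl1x and 0.31 ± 0.03 for Ncor1, and Hdac3, the deacetylase, was not called at -0.07 ± 0.03. Of the 6 other receptors and partners 5 passed the filter on low counts, all but Rorb, of which 3 rose and 2 fell, against the same share, with a median of 0.64. Ppargc1a and Ppargc1b, coactivators of the fasted liver, rose by 1.73 ± 0.11 and 1.00 ± 0.07, and Ppara, the fatty acid receptor, by 0.64 ± 0.07. Bmal2, the paralogue of Bmal1, changed by -0.58 ± 0.12.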

How the data were processed

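Poly(A) RNA of 80 livers was read. The authors deposited raw gene counts and raw exon-bin counts, whole numbers without normalization, and a normalized table that was not used. The submitters' processing notes name Trimmomatic, HISAT2, DESeq2 and GRCm39. The counting program and its strand setting are not given in the sources used here. The article is a review without methods for these data, so the tests were chosen for raw counts. Genes were filtered with filterByExpr, scaled by TMM and fitted with edgeR 4.0.16 in R 4.3.3 (quasi-likelihood, 1 mean per treatment, time and sex), with Benjamini–Hochberg adjustment over all genes. CPM values are TMM scaled, log2 CPM has a prior count of 2, and rhythm intervals follow the delta method. Exon usage was tested with diffSpliceDGE and Simes' method, leaving out 5 rows of no exon (8.28% to 25.9% of a column). Of the 80 exon columns, 77 matched best their own library in the gene table and 3, all of fasted CT40, another of their group. Alternatives were limma 3.58.1, DESeq2 1.42.0, its size factors, no filter beyond a summed count of 10, a replicate block, single sexes, other time models, and leaving out replicates or, chosen after the data had been seen, libraries that stood apart. The scripts were tested on simulated data. The members and lists were chosen with earlier results of these data known. Named genes are the members, at most 4 of each list with the largest mean or joint effect, the 3 nearest in pattern, and Fgf21 and Srebf1. Thra, Xist, Ddx3y, Rn18s-rs5 and Hdac3 were added with their values seen. Some list genes are counted but not reported here by name. Counts of the 40 pairs of libraries of equal treatment, time and sex differed by more than sampling noise (chi-square of at least 14.8 per degree of freedom).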

Additional observations from a re-analysis of the deposited data

Results flagged for a closer look

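In 8 of the 120 groups of 4 libraries (6 genes, 20 groups), a library lay apart from the other 3 on the log2 CPM scale, by the ratio of its gap to the group's range, against Dixon's critical value for 4. With 4 independent values from 1 normal distribution, chance flags about 1 in 20 groups, which would be 6 here. These groups mix the sexes and the 6 genes share libraries, so that number is only a guide. Clock and Nr1d1 were flagged in the same library, fasted CT44 female 1. For Nr1d1 it stood at 39.8 CPM and the others at 12.4 to 14.9 CPM (ratio 0.843). For Clock it stood at 57.7 CPM and the others at 96.3 to 106 CPM (0.849). The remaining flags were spread over other libraries. Bmal1 in control CT40 male 1 was at 15.3 CPM and the others at 26.0 to 26.2 CPM (0.989). Clock in control CT12 female 1 was at 26.7 CPM, below 38.6 to 40.7 CPM (0.878), and in control CT40 male 2 at 83.0 CPM, above 69.2 to 71.3 CPM (0.834). Nr1d2 in fasted CT28 male 2 was at 69.6 CPM, above 43.7 to 45.4 CPM (0.918), and in fasted CT36 female 2 at 80.5 CPM, below 107 to 113 CPM (0.844). Npas2 in control CT36 female 2 held 1 count (0.847).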

How the results depend on the processing

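Of 134 recalculated counts of genes called, 126 stayed within 1.5 times the reported count, and the other 8 came from leaving out 1 replicate number of a sex at every time. Over those fits 1 to 5 of the 6 genes were called in the comparison of the days, 2 to 4 in the 12 h term, 0 to 1 in the sex difference of the fasting effect, 3 to 6 in that of the control level and 0 to 2 at CT8, and at single times 16 to 25 of 54 combinations against 26. The comparison of the days and the sex difference of the fasting effect were void for Npas2 without male replicate 1, male replicate 2 or female replicate 1. Their counts take Npas2 as not called there. Without male replicate 1 the control males of CT12 were left at 0 counts of Npas2. Its sex difference of the control level was void in that fit too, and that count takes Npas2 as called. Of 882 recalculated values of single genes, 46 lost their call, 14 gained it and 1 reversed: Clock at CT44 was called at 0.21 without female replicate 1 and at -0.35 without female replicate 2, against -0.05 and no call with all libraries.

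The number of all genes called moved by more than 1.5 times in these cases. At CT8 it was 282, against 4 with limma-voom, 0 in the 8 libraries alone, 11 without control CT8 female 2 and 0 to 2154 with a replicate left out. At CT40 it was 8459, against 5047 in the 8 libraries alone. For the sex difference of the control rhythm it was 8, against 16 without the filter, 3 with the replicate block, 2 with limma-voom and 0 to 4 with a replicate left out. In males alone and females alone it was 5071 and 4644 for the control rhythm (8417 with both), 644 and 29 for the 12 h term in those controls (1183), 6597 and 6504 for the fasted rhythm (10572) and 2251 and 1539 for the rhythm difference (4858). With a replicate left out it was 719 to 3676 for the comparison of the days (3617), 260 to 2549 for the sex difference of the fasting effect (2621), 239 to 944 for the 12 h term, 2701 to 3631 for the rhythm difference, and 8653 to 12082 for the joint test (13072). For exon usage it was 2018, against 1652 with CT40 left out and 930 to 1228 with CT40 and a replicate left out. At single times the lowest such counts were 5 at CT12 (340), 2196 at CT16 (4955), 4909 at CT20 (7757), 2075 at CT24 (5099), 1885 at CT28 (4448), 1254 at CT32 (3751), 2697 at CT36 (5672), 5221 at CT40 and 4660 at CT44 (8355).

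Every mouse was a separate animal, and the replicate numbers did not pair the libraries: deviations of equally numbered fasted and control libraries of 1 time and sex correlated at -0.0564 to 0.249, with a median of 0.00193, and 1 of 20 pairs was above 0.1. With the replicate block 5 of the 6 genes were called in the mean fasting effect and 26 of 54 at single times, and the block ended 1 call among the tests of the 6 genes, that of the sex difference of Bmal1. Depth limits Npas2 between CT8 and CT16 and between CT32 and CT40, where libraries with 3 or fewer counts occur.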
